A study of Mus musculus with 17 samples.

Results

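The replication-dependent histone genes encode the core histones H2A, H2B, H3 and H4 and the linker histone H1 that package newly copied DNA in S phase. Members were the rows of the gene count table whose symbol begins Hist1h, Hist2h, Hist3h or Hist4h followed by a histone class, with at least 10 counts summed over all 17 libraries. Of 67 rows with such a name, 62 passed that minimum, out of 20621 genes in the table. They comprise 6 genes of class H1, 16 of H2A, 16 of H2B, 12 of H3 and 12 of H4. The Hist1 cluster on chromosome 13 holds 50 of them, the Hist2 cluster on chromosome 3 holds 9, the Hist3 cluster on chromosome 11 holds 2 and Hist4h4 on chromosome 6 is the remaining member. The 5 genes below the minimum were Hist2h2aa1 with 7 counts, Hist1h2ao and Hist1h2ba with 4 each, Hist1h2br with 3 and Hist1h4m with 2. Just above it lay Hist1h2ap with 16 counts and Hist1h2aa with 17.

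Total RNA was sequenced from E14 cells, a line of mouse embryonic stem cells (mESCs), of 2 genotypes. WT cells were compared with RNAPII-mut cells, whose genotype label is slow/slow. The series title names a slow form of RNA polymerase II in these cells. Cells of both genotypes were grown without feeders on gelatine in medium with fetal bovine serum and leukaemia inhibitory factor (LIF). The treated cells in addition received 2i, which is PD0325901 (a MEK inhibitor, 1 µM) with CHIR99021 (a GSK3 inhibitor, 3 µM), for 1, 2 or 7 days, and day 0 cells received no inhibitor. Each of the 8 groups had 2 libraries, except the mutant at day 1 with 3. The labels do not say whether replicates were separate cultures or whether the mutant line is 1 clone, so p-values measure the spread between these libraries, which may be technical. Library totals lay between 47350441 and 56138844 counts. Markers of embryonic stem cells summed to at least 4626 CPM (counts per one-millionth of the library's normalised total) in each library. Stromal markers summed to 563, 979 and 147 CPM in WT replicate 1 at days 0, 1 and 2, against at most 20.0 in every other library, and trophoblast markers were also highest in these 3 libraries (381 to 1229 CPM, against at most 203).

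Most replication-dependent histone mRNAs carry no poly(A) tail. Their 3′ end is formed by a cut just after a short stem-loop, which the stem-loop binding protein (Slbp) recognises together with the U7 small nuclear ribonucleoprotein, and the same stem-loop governs their translation and their decay at the end of S phase. Some of these genes also have a conventional poly(A) signal further downstream, from which a polyadenylated form can be made in cells that no longer replicate their DNA or that differentiate. A library prepared through poly(A) tails recovers the first kind of RNA poorly and the second kind well. Whether these libraries were made by poly(A) selection or by removal of ribosomal RNA is not given in the sources used here.

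The members were therefore read in 2 sets, according to whether AATAAA or ATTAAA stands in the last 40 bases of an annotated transcript (GENCODE M21, GRCm38). This split was chosen after the values had been seen, and it is used as a description without a test of its own. It gave 16 members with a signal and 46 without one, and a window of 60 bases moved 0 members. For comparison, 76.1% of 21873 annotated protein-coding genes held either hexamer in the window of 40 bases. A stem-loop with 6 paired bases, and at most 4 mismatches to the 16 letters in capitals shown for Hist3h2a, was found in 43 members, 14 of the 16 with a signal and 29 of the 46 without. In 18 of those 29 an annotated transcript ended within 100 bases of the stem-loop, against 2 of the 14. A missing match says only that these letters are not in the annotated transcript.

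The stem-loops of the genes on which the genotype comparison turns are shown here 5′ to 3′ on the gene's strand, with the loop and both arms of the stem in capitals. The first 4 belong to genes that were higher in the mutant and the last 4 to genes that were lower.
Hist3h2a, chr11:58955167-58955192, plus strand: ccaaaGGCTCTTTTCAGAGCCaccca
Hist3h2ba, chr11:58949344-58949369, plus strand: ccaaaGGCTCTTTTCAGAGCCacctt
Hist1h2bp, chr13:21787918-21787943, plus strand: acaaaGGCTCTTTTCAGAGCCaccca
Hist1h4i, chr13:22040961-22040986, minus strand: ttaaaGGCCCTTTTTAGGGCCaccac
Hist1h2bk, chr13:22036295-22036320, plus strand: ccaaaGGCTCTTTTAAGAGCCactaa
Hist1h2bj, chr13:22043633-22043658, plus strand: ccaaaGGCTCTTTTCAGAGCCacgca
Hist1h3c, chr13:23745042-23745067, minus strand: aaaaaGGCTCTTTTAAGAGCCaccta
Hist1h4b, chr13:23757361-23757386, plus strand: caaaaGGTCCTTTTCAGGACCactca

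These 8 genes hold the stem-loop, while none was found in Hist1h1a, Hist1h2ai and Hist1h2ak, 3 further genes that were lower in the mutant. Hist3h2a, Hist3h2ba, Hist1h2bp and Hist1h2bj hold the same 16 letters. What set the first 4 apart in the annotation was a transcript end with a poly(A) signal. Those transcript ends are shown with the hexamer in capitals.
Hist3h2a, chr11:58956793-58956822, plus strand: gcccAATAAAataagagtacgtgtataaca
Hist3h2ba, chr11:58949503-58949532, plus strand: tattAATAAAtttggttcaattttggccac
Hist1h2bp, chr13:21789187-21789213, plus strand: taaaAATAAAggtttcaatctatccca
Hist1h4i, chr13:22040636-22040660, minus strand: ttacATTAAAagtattctatgctaa
In Hist3h2a the annotated transcript runs 1643 bases past the stem-loop, in Hist1h4i 330 bases and in Hist3h2ba 169 bases. Hist1h2bp has its stem-loop on one transcript, which ends 38 bases after it, and its signal on another. In Hist1h2bk, Hist1h2bj, Hist1h3c and Hist1h4b the transcript ends 30, 23, 74 and 28 bases after the stem-loop.

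The histone genes took a very small share of every library. The 62 members together received 1528 to 2999 counts per library, or 28.2 to 60.9 CPM with a median of 44.4. A lone replacement histone gene, H2afx, which encodes the H2AX variant and is transcribed to a form with a stem-loop and a form with a tail, received 334 to 732 CPM. These are shares of counts, not levels per length. Of 18 other listed RNAs without a tail, 0 are among the rows used here, and of 8 mitochondrial mRNAs also 0, so these are not analysed here. For the same reason the amount of tail-less histone RNA in the cells and its recovery in the libraries cannot be told apart. In bulk RNA, a change in the number of cells in S phase and a change in RNA per cell cannot be told apart either.

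Per length, the highest members came from several classes. The length is that of all annotated exons of a gene, including any stretch past the stem-loop, so this order depends on the annotation. In Hist3h2a it is 2146 bases, against 411 in Hist1h3h. On the scale of mean CPM per kilobase of exon, the linker histone gene Hist1h1c stood at 5.57 and the H4 gene Hist1h4i at 5.30, followed by the H2B gene Hist1h2bc at 3.69 and the H2A gene Hist1h2ae at 3.08. The next were Hist1h2bk at 2.18, Hist3h2a at 2.09 and the H3 gene Hist1h3h at 2.06. Hist1h1c, Hist3h2a, Hist1h2bc and Hist1h4i together held 47.5% of the members' summed CPM. The 16 members with a poly(A) signal held 53.5%. At the other end, Hist1h1t, the testis-specific linker histone gene, had 0 counts in 7 of 17 libraries and at most 0.255 CPM, and 15 members were at 0 in at least 1 library.

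**Figure D1:**
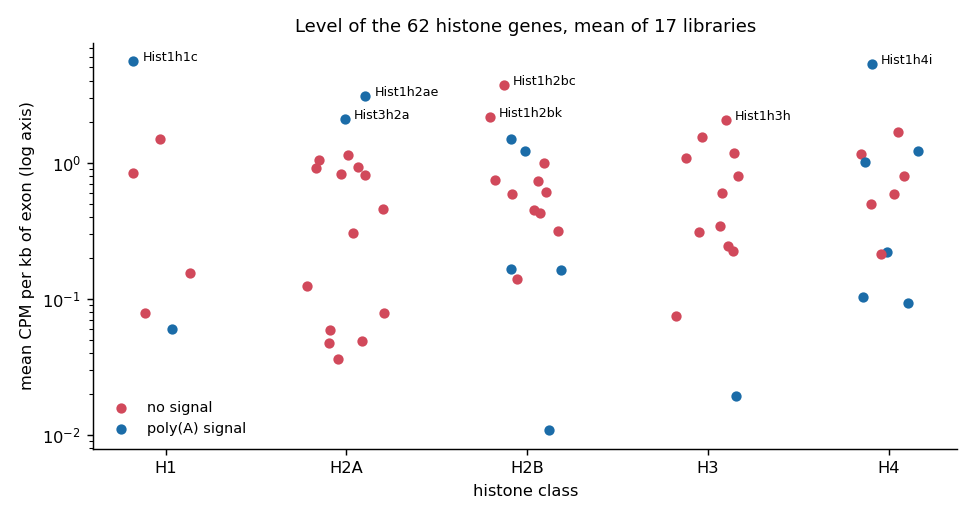
Mean level of each of the 62 members over 17 libraries, as CPM per kilobase of annotated exon on a log axis, by histone class. Blue points are members with a poly(A) signal and red points members without one; Hist1h1c at 5.57 and Hist1h4i at 5.30 are the highest.

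Sequence sharing limits how far single genes can be separated. Of the 62 members, 55 share at least 1 stretch of 100 bases with another gene, and 21 share more than 50% of such stretches. Hist1h2ai shares 88.4% of them, Hist1h4n 80.7% and Hist1h2bk 70.8%, while Hist1h1a shares 0 and Hist3h2ba 4.85%. How reads that fit several genes were counted is not given in the sources used here, so values of single genes that share most of their sequence are uncertain. Hist3h2a overlaps exons of Trim17 on the same strand. Trim17 itself had 0.0602 to 0.782 CPM, against 1.72 to 9.27 for Hist3h2a, and its log2 difference between genotypes was -0.02 ± 0.42 (SE).

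The first comparison asked how the histone genes differed between the mutant and WT. Averaged over the 4 days, 4 members were higher in the mutant and 9 were lower, out of 52 that passed the filter on low counts (edgeR quasi-likelihood test, Benjamini-Hochberg adjusted p under 0.05 over 15365 genes). Of all tested genes, 12.8% were called in this comparison, 5.35% higher and 7.49% lower. The members' share, 13 of 52, lies above that. The 4 higher genes, Hist3h2a, Hist1h2bp, Hist3h2ba and Hist1h4i, all belong to the set with a poly(A) signal. The 9 lower genes all belong to the set without one. The lower calls rest on which WT libraries are used, as described below.

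Hist3h2a, an H2A gene of the small Hist3 cluster, had 1.72 to 3.84 CPM in the 8 WT libraries (median 2.53) and 3.44 to 9.27 in the 9 mutant libraries (median 6.39). Only the mutant library of day 1, replicate 3, fell below any WT library. The log2 difference was 1.30 ± 0.21 (SE), adjusted p = 0.00226 by edgeR. It was largest at day 7, with 1.72 and 1.99 CPM in WT and 6.54 and 9.27 in the mutant. At that day alone the log2 difference was 2.09 ± 0.43 and did not pass, with an adjusted p of 0.0848 by edgeR.

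Hist3h2ba, the H2B gene of the same cluster, lay higher in each mutant library than in each WT library of the same day. At day 0 it had 0.988 and 0.744 CPM in WT and 1.63 and 2.08 in the mutant, and at day 7 it had 0.203 and 0.375 in WT and 0.554 and 0.472 in the mutant. Its mean log2 difference was 1.12 ± 0.27 (adjusted p = 0.0167, edgeR). Both Hist3 genes were thus higher in the mutant, against a median of -0.45 for the 45 tested genes of Hist1.

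Hist1h2bp, an H2B gene with 2 annotated transcripts and at most 1 intron, ranged from 0.314 to 0.765 CPM in WT (median 0.495) and from 0.702 to 1.85 in the mutant (median 1.06). Only the mutant library of day 7, replicate 1, fell within the WT range. The log2 difference was 1.14 ± 0.23 (adjusted p = 0.00716, edgeR).

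Hist1h4i, the H4 gene with the highest level per length, had 1.39 to 5.75 CPM in WT (median 2.73) and 2.35 to 6.68 in the mutant (median 5.28). The groups overlapped at days 1 and 7 and were apart at days 0 and 2. Its log2 difference of 0.72 ± 0.19 was the smallest of the 4 (adjusted p = 0.0281, edgeR), and without WT day 0 replicate 1, or without 6 other single libraries, it no longer passed.

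The most abundant member, Hist1h1c, encodes the linker histone H1.2 and has both a stem-loop and a poly(A) signal. It had 3.17 to 14.0 CPM in WT and 6.37 to 13.6 in the mutant, so that the ranges overlapped widely. The log2 difference was 0.56 ± 0.24 and did not pass (adjusted p = 0.140, edgeR). Hist1h2bc, an H2B gene that is also known for polyadenylated transcripts but whose annotated end holds neither hexamer, had a log2 difference of 0.54 ± 0.20 (adjusted p = 0.0965, edgeR). Hist2h2be, which is kept up in cells that do not divide, had 0.69 ± 0.37 (adjusted p = 0.256), and Hist4h4 had -0.29 ± 0.36 (adjusted p = 0.665).

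**Figure D2:**
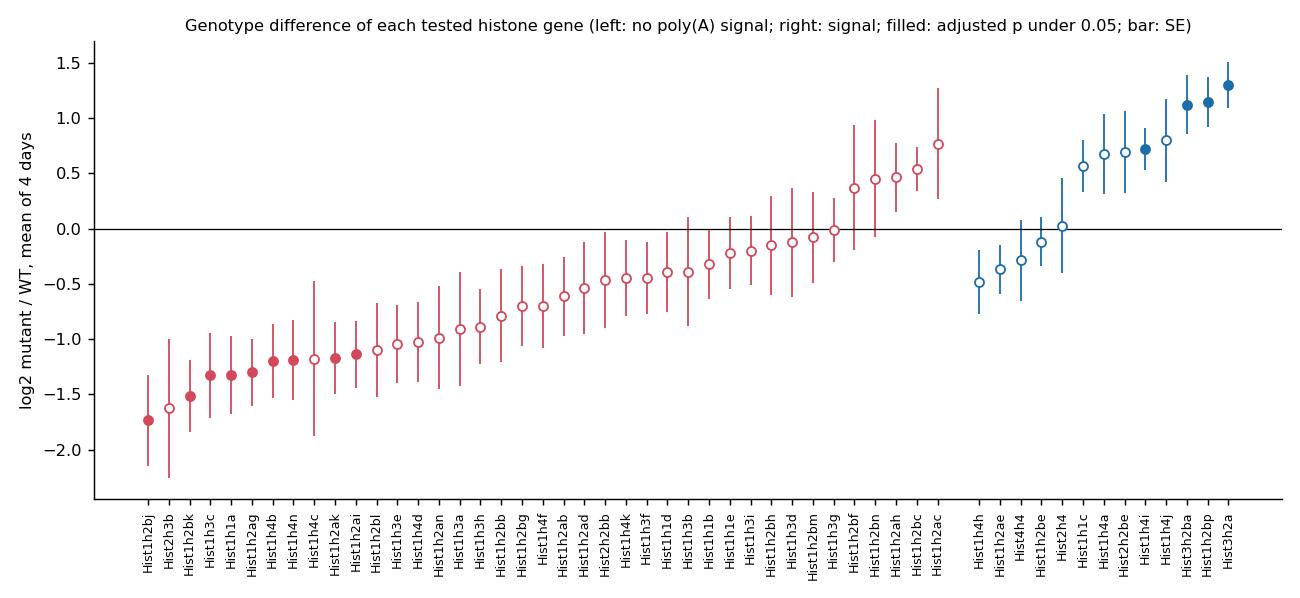
Log2 mutant over WT, averaged over 4 days, for the 52 tested members with 1 SE, members without a poly(A) signal in red on the left and with one in blue on the right. Filled points passed at an adjusted p under 0.05: 9 red points between -1.74 and -1.14 and 4 blue points between 0.72 and 1.30.

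Among the lower genes, Hist1h2bk, an H2B gene, had 0.640 to 2.59 CPM in WT (median 1.48) and 0.259 to 0.809 in the mutant (median 0.547). The only WT library within the mutant range was day 1, replicate 1. The log2 difference was -1.51 ± 0.33 (adjusted p = 0.0109, edgeR). Hist1h2bj, another H2B gene, had -1.74 ± 0.41 (adjusted p = 0.0169), with 0.296 to 1.49 CPM in WT and 0.111 to 0.447 in the mutant.

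Hist1h1a encodes the linker histone H1.1 and shares none of its stretches of 100 bases with other genes. It ranged from 0.572 to 2.80 CPM in WT and from 0.351 to 1.01 in the mutant (median 0.644). Its log2 difference was -1.33 ± 0.35 (adjusted p = 0.0273, edgeR). Hist1h3c, the H3 gene with the highest mean CPM, ranged from 0.603 to 2.31 in WT and from 0.0739 to 1.07 in the mutant, with a log2 difference of -1.33 ± 0.39 (adjusted p = 0.0397). The other 5 called genes were the H2A genes Hist1h2ag, Hist1h2ai and Hist1h2ak and the H4 genes Hist1h4b and Hist1h4n, with log2 differences between -1.30 and -1.14.

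**Figure D3:**
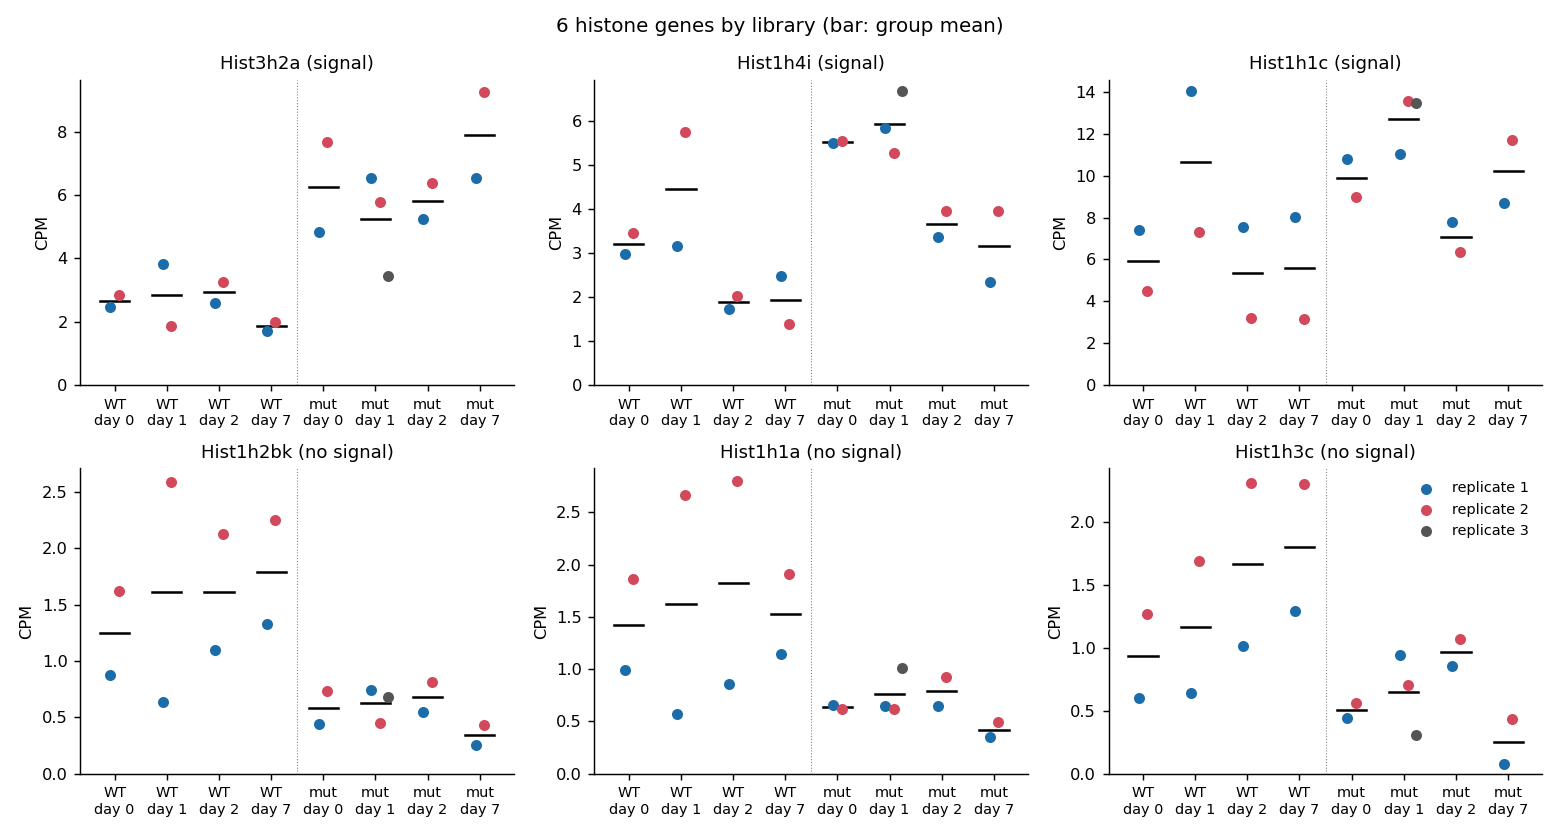
CPM of 6 members in each library by genotype and day of 2i, with the bar at the group mean. Hist3h2a, Hist1h4i and Hist1h1c have a poly(A) signal and Hist1h2bk, Hist1h1a and Hist1h3c do not; in the last 3 WT replicate 2 (red) lies above WT replicate 1 (blue) at each day.

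The WT libraries were not alike. In the summed CPM of the 46 members without a poly(A) signal, WT replicate 1 had 19.7, 17.9, 18.7 and 15.8 at days 0, 1, 2 and 7, and WT replicate 2 had 27.1, 35.9, 31.9 and 23.9. Replicate 2 was thus 1.37-, 2.00-, 1.70- and 1.52-fold of replicate 1 at the 4 days. Without Hist1h2bc, the most abundant of the 46, it was 1.58-, 2.59-, 1.97- and 1.60-fold. In the summed CPM of the 16 members with a signal the order was the opposite. Replicate 1 had 19.1, 26.4, 17.6 and 16.4 CPM and replicate 2 had 17.9, 22.9, 15.4 and 11.6. That order rested on Hist1h1c, without which replicate 1 was not the higher at any day. Single genes were split, with 7, 10, 7 and 9 of the 16 higher in replicate 2 at the 4 days.

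Gene by gene, 22 of the 39 tested members without a signal (56.4%) were higher in WT replicate 2 at all 4 days, and 0 were lower at all 4. Of the 13 with a signal, 2 were higher (15.4%) and 2 lower at all 4 days, and of all tested genes 24.7% were higher and 20.6% lower. The 2 lower ones were Hist1h1c and Hist2h2be. Hist1h1c had 7.40, 14.0, 7.53 and 8.03 CPM in replicate 1 and 4.48, 7.30, 3.19 and 3.17 in replicate 2. Markers of primitive endoderm, an early embryonic lineage, also separated the replicates: their sum was 373 to 507 CPM in WT replicate 2, 65.0 to 338 in WT replicate 1 and 81.2 to 270 in the mutant. Embryonic stem cell markers were lower in WT replicate 1 at each day, with 5122, 4626, 6571 and 8168 CPM at days 0, 1, 2 and 7. Replicate 2 had 7462, 8701, 9882 and 9408, and the mutant 6784 to 8619. Mesoderm markers were higher in WT replicate 1 at each day (17.7 to 155 CPM, against 8.86 to 18.1 in replicate 2). The part of these markers in the histone result was not tested.

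The mutant libraries lay near WT replicate 1 in the set without a signal. Their sums were 21.5 and 19.3 CPM at day 0, then 27.1, 19.5 and 20.4 at day 1, 16.2 and 19.9 at day 2, and 6.89 and 12.2 at day 7. At days 0 and 2 the mutant values lay on both sides of WT replicate 1, and at day 1 all 3 lay above it. At each of these days they stayed below WT replicate 2. At day 7 both mutant libraries lay below both WT libraries. Without Hist1h2bc, the most abundant member of this set, both mutant libraries of day 0 (14.3 and 12.9 CPM) lay below WT replicate 1 (15.1). The order at days 1, 2 and 7 was kept. In the set with a signal, the mutant had 31.2 and 32.6 CPM at day 0, then 33.8, 34.5 and 33.2, then 21.1 and 23.1, and 21.3 and 29.3 at day 7. These lay above both WT libraries at each of the 4 days. Without Hist1h1c, Hist3h2a and Hist1h4i, this order was kept at days 0 and 1 and lost at days 2 and 7.

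**Figure D4:**
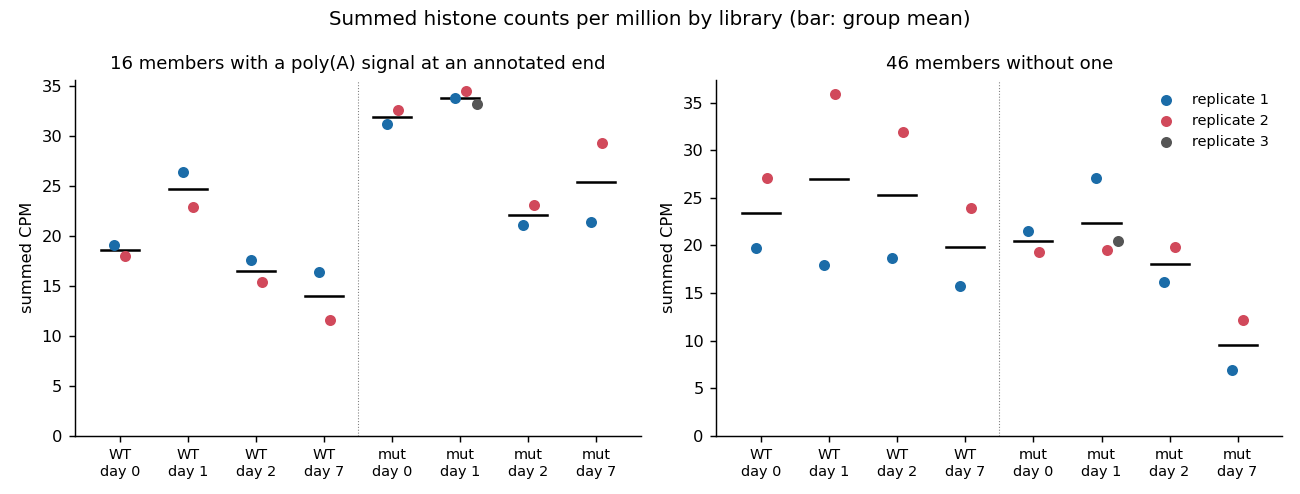
Summed CPM of the 16 members with a poly(A) signal (left) and the 46 without one (right) in each of the 17 libraries, with the bar at the group mean. On the left the mutant lies above WT at each day, which at days 2 and 7 rests on Hist1h1c, Hist3h2a and Hist1h4i. On the right WT replicate 2 (red) lies above WT replicate 1 (blue), and the mutant at day 7 is lowest, at 6.89 and 12.2.

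The genotype calls followed this difference. With WT replicate 1 as the only WT library of each day, 7 of 52 members were called, all 7 higher and 0 lower, against 24.5% of all genes. They included the 4 higher genes named above, and their share lies below that of all genes. With WT replicate 2 as the only WT library, 23 of 52 were called, 7 higher and 16 lower, including all 13, against 28.4% of all genes. With WT replicate 1 the log2 difference of Hist1h2bk was -0.81 (adjusted p = 0.0645, edgeR) and that of Hist1h1a -0.44 (adjusted p = 0.260). The other 7 lower genes also stayed below 0 without passing. With WT replicate 2 that of Hist1h2bk was -1.95 and that of Hist1h1a -1.83. Hist1h1c passed with WT replicate 2, at 1.21 (adjusted p = 0.000315, edgeR).

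The replicate numbers paired the WT days with each other, so a fit with the WT replicate as a block was also made. In that fit the WT level of each day is the level fitted for WT replicate 1. The shift between the WT replicates is 1 value for all 4 days. Averaged over the days, its genotype differences thus compare the mutant with WT replicate 1 and are not a separate check. For Hist1h2ah they were 1.05 with the block and 1.06 with WT replicate 1 alone. The blocked fit called 8 of 52 members on average, 6 higher and 2 lower. It called 23.7% of all genes, so the members' share was not above that of other genes. These were the 4 higher genes above with Hist1h2ah and Hist1h2ac, and the lower genes Hist1h2bk and Hist1h2ag. Hist1h2ah, an H2A gene, had a blocked log2 difference of 1.05 (adjusted p = 0.0343, edgeR) and Hist1h2ac 1.83 (adjusted p = 0.0402). Hist1h2ac lay near the floor, with 2, 4, 1 and 2 counts in WT replicate 1 and 2 to 14 per mutant library. These 2 calls also rest on the WT replicate used: with WT replicate 2 alone the values were 0.07 (adjusted p = 0.890) and 0.17 (adjusted p = 0.847), and Hist1h2ac did not pass with WT replicate 1 alone (1.86, adjusted p = 0.0665).

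Without the 3 WT replicate 1 libraries with high stromal markers, which leaves 5 WT libraries, of which 4 are of replicate 2, 19 of 52 members were called, 6 higher and 13 lower, against 19.6% of all genes. Of the 13 genes first named, 12 were among them, and Hist1h4i was not.

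Over whole sets, the median log2 difference was 0.68 for the 13 tested members with a signal, of which 9 were positive, and -0.70 for the 39 without one, of which 34 were negative. The median over all tested genes was -0.03. The 34 negative values among members without a signal rest on both WT replicates. By class, the 10 tested H3 genes were all negative, with a median of -0.67. Hist1h3g, at -0.01, turned to 0.44 with the WT block and 0.47 with WT replicate 1 alone. In mean CPM, Hist1h3a, Hist1h3b, Hist1h3d and Hist1h3i were also higher in the mutant than in WT replicate 1. The rest of the tested H3 genes were lower. The 15 H2B genes were split, with 6 positive and 9 negative. The lowest values with no call were those of Hist2h3b (-1.63 ± 0.63) and Hist1h4c (-1.18 ± 0.70), both at few counts.

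At single days, 0 of 52 members were called in either direction by edgeR at days 0, 1, 2 and 7, where 0.28%, 0.417%, 0.0716% and 0.0976% of all genes were called. At an unadjusted p under 0.05 there were 2, 6, 5 and 15 members, and DESeq2 called 1, 1, 0 and 3, against 4.66%, 5.24% and 2.05% of all genes at days 0, 1 and 7. Here and below, the share of all genes at an unadjusted p under 0.05 is not given. Counts at that threshold are therefore not read as particular to the members. Of the members with a signal, 13 of 13 had positive values at day 0 and again at day 1, then 7 of 13 at day 2 and 8 of 13 at day 7. For those without a signal the medians were -0.40, -0.20, -0.56 and -1.55 at the 4 days. With the WT block, Hist1h2bp and Hist1h2ah were called higher at day 0 (1.74 and 1.92, adjusted p = 0.0363 and 0.0479, edgeR), Hist3h2ba at day 1 (1.69, adjusted p = 0.0466) and Hist3h2a at day 7 (2.05, adjusted p = 0.0476). That fit called 9.53%, 12% and 0.898% of all genes at these days. Its WT level at a day is the level fitted for WT replicate 1. That level draws on both WT libraries of the day and on 1 replicate shift shared by the 4 days. These single-day calls thus compare the mutant with that fitted level and are not a separate check.

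The second comparison followed the histone genes through 2i treatment within each genotype. In the mutant, 4 members fell from day 0 to day 7 and 0 rose, where 14.2% of all genes were called, 6.96% lower and 7.2% higher. The share of members that fell is thus near that of all genes. Of the 52 tested members, 50 had negative values, with a median log2 change of -1.18, against 0 for all tested genes.

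The 4 that fell were Hist1h2be, Hist3h2ba, Hist1h2ae and Hist1h1e. Hist1h2be had 1.20 and 1.28 CPM at day 0 and 0.222 and 0.363 at day 7, a log2 change of -2.08 ± 0.47 (adjusted p = 0.0116, edgeR). Hist3h2ba had -1.85 ± 0.54 (adjusted p = 0.0385). Hist1h2ae, an H2A gene with a poly(A) signal, had 2.75 and 2.26 CPM at day 0 and 0.850 and 0.908 at day 7, with -1.51 ± 0.46 (adjusted p = 0.0438). In each of these 3 genes both libraries of day 7 lay below both of day 0.

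Hist1h1e, which encodes linker histone H1.4, had 0.502 and 0.255 CPM at day 0 and 0.111 and 0.0363 at day 7, with -2.33 ± 0.73 (adjusted p = 0.0494, edgeR). Its exons overlap a long transcript of Hist1h2be on the same strand, so reads of these genes may not be separable. Leaving out mutant day 0 replicate 1, day 0 replicate 2 or day 7 replicate 1 left 0 calls. With the WT block, which also changes the estimate of the spread, 7 were called, against 25.1% of all genes, and all were lower: these 4 with Hist1h4j, Hist1h4h and Hist1h3e.

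Of the called members, 3 belong to the set with a poly(A) signal and 1 to the set without. Of the 39 tested members without a poly(A) signal, 39 had negative values from day 0 to day 7, with a median of -1.22, and of the 13 with one, 11 did, with a median of -0.95. The 2 positive values were those of Hist3h2a and Hist1h1c. Hist3h2a had 4.84 and 7.68 CPM at day 0 and 6.54 and 9.27 at day 7, and Hist1h1c had 8.70 and 11.7 at day 7, on either side of both values of day 0. In neither gene did the days separate.

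At earlier days of 2i no member was called in the mutant by edgeR, where 1.41% of all genes were called at day 1 and 2.92% at day 2. At an unadjusted p under 0.05 there was 1 member at each of these days, and DESeq2 called 0 and 1, the latter against 8.05% of all genes.

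In WT, 0 members were called by edgeR at days 1, 2 or 7 against day 0, where 0.202%, 2.16% and 12.7% of all genes were called. At an unadjusted p under 0.05 there were 0, 0 and 2, and DESeq2 called 0, 0 and 2, where it called 20.2% of all genes at day 7. The median log2 change at day 7 was -0.44, with 40 of 52 values negative. Hist3h2ba had 0.988 and 0.744 CPM at day 0 and 0.203 and 0.375 at day 7, a log2 change of -1.58 ± 0.55 with an adjusted p of 0.0785, and with the WT block it passed at -1.63 (adjusted p = 0.0395, edgeR), in a fit that called 26.1% of all genes.

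The difference between the genotypes in their response to 7 days of 2i was tested directly. It called 0 of 52 members and 0% of all genes by edgeR, with 1 member at an unadjusted p under 0.05 and 0 calls by DESeq2. The median of the members was -0.98 and 44 of 52 were negative. The change in the mutant was not shown to differ from that in WT.

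**Figure D5:**
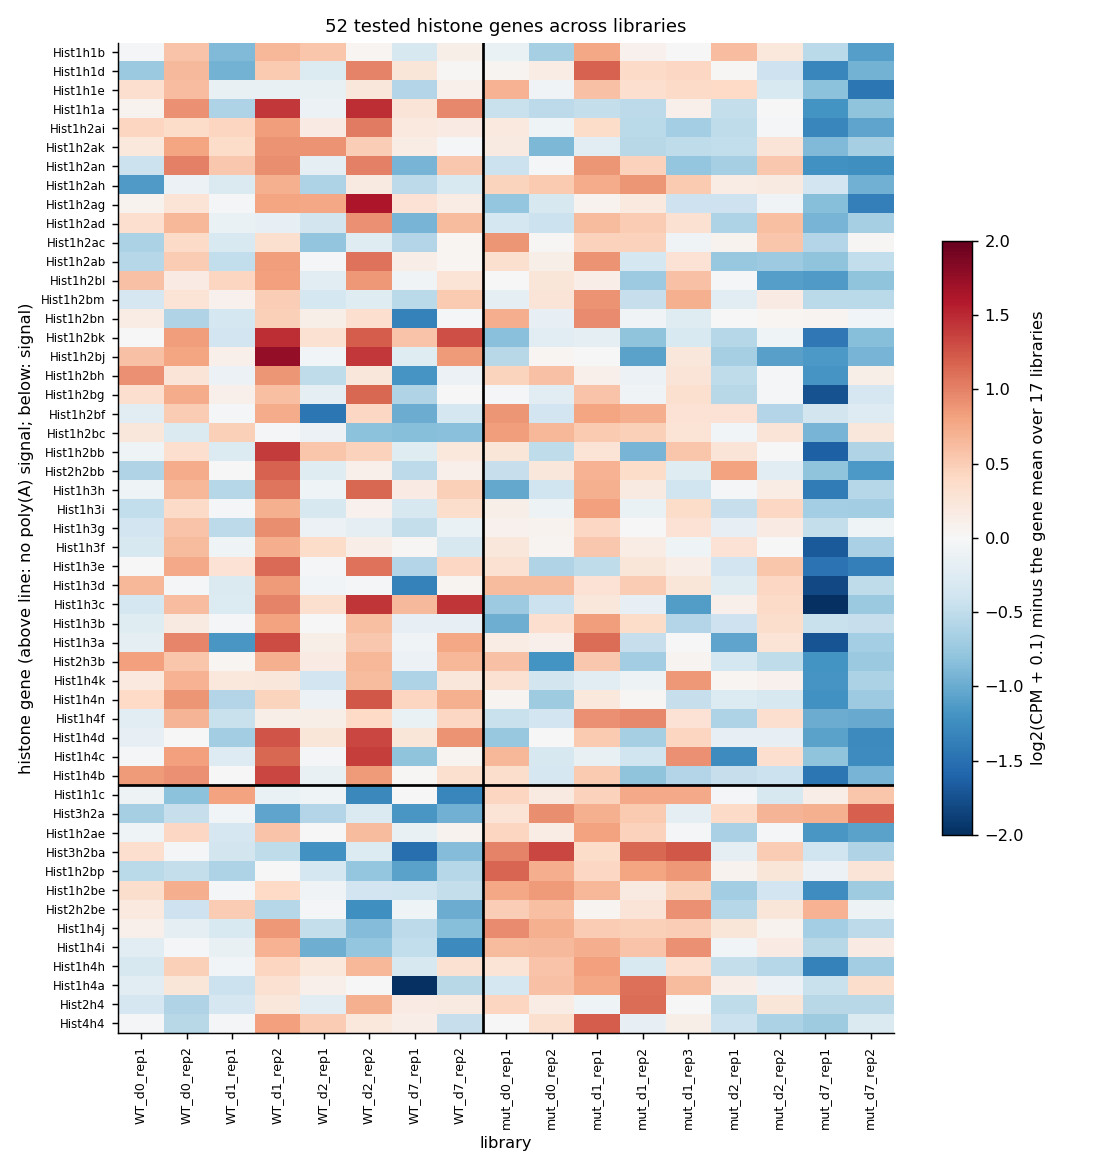
Log2(CPM + 0.1) of the 52 tested members in each library, as the difference from the gene's mean over 17 libraries, with members without a poly(A) signal above the horizontal line and WT left of the vertical line. WT replicate 2 is mostly red and the mutant at day 7 mostly blue in the upper block, while Hist3h2a and Hist1h2bp are below their mean in all 8 WT libraries and above it in 8 of 9 mutant libraries each.

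Genes that make and process histone mRNA were read from a list of 23 genes, all tested, chosen with earlier results of these data known. Averaged over days, 2 were higher in the mutant and 0 lower, with a median of 0.03, where 12.8% of all genes were called. The counts of the lists that follow are to be read against the same share, and those from day 0 to day 7 in the mutant against 14.2%. These were Lsm1, a decay factor for mRNA without a tail (0.51 ± 0.09, adjusted p = 0.00301, edgeR), and Eri1, a 3′ exonuclease that trims histone mRNA (0.43 ± 0.13, adjusted p = 0.0496). Slbp had 0.05 ± 0.14, Npat, which activates histone transcription, had -0.08 ± 0.21, and the U7 proteins Lsm10 and Lsm11 had 0.15 ± 0.20 and 0.05 ± 0.14. None of these 4 passed. From day 0 to day 7 in the mutant 2 of 23 fell, Srrt, a partner of the cap-binding complex (-0.75 ± 0.16, adjusted p = 0.00760), and Upf1, a helicase of histone mRNA decay (-0.68 ± 0.20, adjusted p = 0.0423).

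Among 11 replacement histone genes, which are expressed outside S phase from polyadenylated mRNA in most cases, 2 were higher in the mutant on average and 0 lower. These were H2afx (0.45 ± 0.13, adjusted p = 0.0356, edgeR) and H2afy, the gene of macroH2A1 (0.43 ± 0.11, adjusted p = 0.0253). The H3.3 genes H3f3a and H3f3b had 0.10 ± 0.12 and -0.04 ± 0.06. Of 18 histone chaperone genes 3 were higher and 0 lower: Nap1l1, Supt16 and Asf1b, between 0.29 and 0.44.

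The share of cells in S phase was not measured, and its part in the histone result was not tested. The S-phase and replication list was read as mRNA levels only. Of its 30 genes, 2 were higher in the mutant on average, the helicase subunit Mcm5 (0.38 ± 0.10, adjusted p = 0.0290, edgeR) and the polymerase Pole (0.38 ± 0.09, adjusted p = 0.0135), and 0 were lower. The median was 0.06. From day 0 to day 7 in the mutant, 2 of the 30 fell, Ccne1 and E2f2, with a median of -0.10 over the list against -1.18 over the histone members. Their summed CPM was 6956 to 8195 in WT replicate 1, 7292 to 8910 in WT replicate 2 and 7650 to 9308 in the mutant, ranges that overlap. Of 10 mitosis genes, 1 was higher on average, Ccnb2 (0.37 ± 0.07, adjusted p = 0.00514).

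The members also share promoter features that the gene names do not use. In the 250 bases before the start, from RefSeq (GRCm38.p6; 56 of 62 members matched), CCAAT on either strand stood in 82.1% of members against 33.8% of 32851 promoters. TATAAA stood in 48.2% against 12.4%, and the octamer ATTTGCAT, the site of Pou2f1, in 21.4% against 1.6%. For each gene the first promoter in the table was counted. The octamer was found in 7 of 15 H2A and 5 of 14 H2B promoters and in 0 of the H1, H3 and H4 promoters. Hist1h2be has a second promoter in the table, which holds the octamer and was not counted. Each motif was searched on both strands and counted on its own. These matches are descriptions, and 9 pairs of H2A and H2B genes share 1 stretch between starts 175 to 301 bases apart, so their promoters are not separate counts.

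Part of the shared stretch is shown for Hist1h2ag and Hist1h2bj, the pair in which both genes were called lower. It is also shown for Hist1h2bk, which was called lower, and Hist1h2ah, which was not called. For each pair 250 bases are printed, of 269 between the starts in the first pair and 301 in the second. The plus strand is printed, with the 3 motifs and their reverse complements in capitals.
Hist1h2ag and Hist1h2bj, chr13:22042948-22043197: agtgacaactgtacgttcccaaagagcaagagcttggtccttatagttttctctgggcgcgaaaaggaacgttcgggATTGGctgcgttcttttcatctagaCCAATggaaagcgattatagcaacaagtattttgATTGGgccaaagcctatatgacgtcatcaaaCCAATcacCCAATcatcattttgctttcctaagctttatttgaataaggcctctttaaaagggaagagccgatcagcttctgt
Hist1h2ah and Hist1h2bk, chr13:22035571-22035820: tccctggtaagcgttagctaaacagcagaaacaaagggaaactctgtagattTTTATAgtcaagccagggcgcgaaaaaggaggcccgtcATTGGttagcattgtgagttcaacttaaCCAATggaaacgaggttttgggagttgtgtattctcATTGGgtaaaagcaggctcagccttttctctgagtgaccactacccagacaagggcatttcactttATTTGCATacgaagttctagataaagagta

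Values of the pairs were set side by side. Hist1h2ag and Hist1h2bj had mean log2 differences of -1.30 and -1.74. Hist1h2ah had 0.46 ± 0.31 beside -1.51 ± 0.33 for Hist1h2bk, and Hist1h2an had -0.99 ± 0.47 beside 1.14 ± 0.23 for Hist1h2bp, the member of that pair with a poly(A) signal. Hist1h2ac and Hist1h2bc had 0.77 ± 0.50 and 0.54 ± 0.20. Of the other 5 pairs, Hist1h2ai (-1.14) with Hist1h2bl (-1.10) and Hist1h2ae (-0.37) with Hist1h2bg (-0.70) had the same sign, and Hist1h2ak (-1.18) with Hist1h2bn (0.45) and Hist1h2ad (-0.54) with Hist1h2bf (0.37) had opposite signs. In the last pair Hist2h2ac was not tested. The difference within a pair was not tested.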

How the data were processed

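The authors deposited 1 table of raw counts per gene for 17 libraries. The submitters' processing notes name STAR, deepTools and the mm10 build, without versions. How reads were counted (tool, annotation, strand, read pairs, multi-mapping reads) is not given in the sources used here. Of the members' nonzero counts 77.3% were even, against 84.4% in other genes with totals in the same range; whether mates were counted separately was not tested.

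Members and lists were chosen with earlier results of these data known. The main test was edgeR 4.0.16 in R 4.3.3: TMM scaling, filterByExpr (15365 genes, 52 members), 1 quasi-likelihood fit of 8 group means over all 17 libraries, and 12 contrasts, each adjusted by Benjamini-Hochberg over all genes at 0.05. CPM use TMM-scaled totals, and SE come from the fit. The common biological coefficient of variation was 0.333. The test was tried on simulated data first. DESeq2 1.42.0, other filters and scalings, replicate blocks and leaving out libraries were alternatives. In the block within WT, contrasts of the mutant against WT take the level fitted for WT replicate 1. The replicate number pairs the WT libraries: the deviations of same-numbered WT libraries had correlations of 0.236 to 0.744 over 6 pairs of days. In the mutant they were -0.342 to 0.174 over 6 pairs, and between genotypes -0.348 to 0.503 over 16. Genes named are the 3 highest of each class, up to 6 called per direction and contrast, and listed forms.

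Transcript ends, stem-loops and shared stretches were read from GENCODE M21, to which 62 of 62 symbols matched. A stretch was shared when the same 100 bases occurred in an annotated transcript of another gene.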

Additional observations from a re-analysis of the deposited data

How the results depend on the processing

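The count of members called on average over the 4 days was 13. It was 8 with the stricter filter (13 members tested), 8 with the replicate block within WT, 7 with WT replicate 1 alone and 23 with WT replicate 2 alone, and 6 to 15 when single libraries were left out. The count from day 0 to day 7 in the mutant was 4. It was 7 with DESeq2, 2 with no filter, 8 with only the compared groups (3 shared), 7 with the replicate block within WT and 0 to 3 when single libraries were left out. The share of all genes is not given for each setting, so changes in these counts are not read as particular to the members. Counts of 0 became, at day 0, 1 with DESeq2 and 2 with the block within WT. At day 1 they became 1 with DESeq2, 1 with that block and 2 with WT replicate 2 alone. At day 7 they became 3, 1 and 5 under the same settings and 1 without WT replicate 1 of days 0 and 1, as also without that of days 0, 1 and 2, the 3 libraries with high stromal markers. For WT at day 7 they became 2 with DESeq2, 1 with the block and 0 to 1 without single libraries, and for the mutant at day 2, 1 with DESeq2. The replicate block common to both genotypes gave 10 on average and 3 in the mutant at day 7. The log2 difference of the summed CPM was 0.11 for all members and turned to -0.44 without the 5 most abundant and -0.35 without the listed forms. For members with a signal it was 0.63, and 0.31 without the listed forms. For members without one it was -0.48, with -0.12 against WT replicate 1 and -0.83 against WT replicate 2. Hist1h1b turned from -0.32 to 0.0066 with the block within WT and 0.079 with WT replicate 1 alone. Hist1h3g turned from -0.01 to 0.024 with the common block, 0.44 with the block within WT, 0.0053 with halved counts and 0.47 with WT replicate 1 alone, and lay between -0.16 and 0.25 without single libraries. The alternatives without those 2 or 3 libraries, with halved counts, with either WT replicate alone and with the window of 60 bases were chosen after seeing the data. With the WT group of a day at 1 library, that library is assumed to vary like the other groups. The causes were not tested. Depth limits the 10 members that did not pass the filter, which were not tested.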
